A study of Drosophila melanogaster with 33 samples.

Results

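The genes described are the alpha to lambda trypsins of Drosophila melanogaster, 10 listed genes that encode digestive serine proteases: alphaTry, betaTry, deltaTry, epsilonTry, zetaTry, etaTry, thetaTry, iotaTry, kappaTry and lambdaTry. They were found by gene symbol in the annotation of the array platform. Of the 10, 9 are among the 9905 named genes with a probe of their own. They hold 10 of the 14064 probes with any value, since epsilonTry has 2. deltaTry has none: 1 probe names it together with gammaTry and CG30031, and the value of that shared probe is given below but credited to no single gene.

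Midguts of Canton S animals were profiled through the onset of metamorphosis, at 18 h and 4 h before puparium formation (BPF), at puparium formation itself (0 h), and at 2, 3, 4, 5, 6, 8, 10 and 12 h after it (APF). Each of these 11 stages has 3 arrays, lettered a, b and c, which the labels describe as hybridizations of independent samples. On each of the 33 arrays, amplified midgut RNA of 1 stage (Cy5) was hybridized against a common reference (Cy3), a pool of midgut RNA from all stages but 10 h. All groups share the strain and the tissue, and no treatment separates them.

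Trypsins cut dietary proteins after lysine and arginine. They are made as inactive precursors, secreted by the enterocytes of the midgut into its lumen and activated there. The larva feeds until shortly before puparium formation, then stops and empties its gut. At that time a pulse of the steroid hormone ecdysone starts metamorphosis, the larval midgut epithelium dies and is shed into the lumen, and clusters of progenitor cells build a new epithelium around it. The trypsin genes lie side by side. In the gene order of the Release 6 plus ISO1 MT assembly, the block on chromosome arm 2R runs lambdaTry, kappaTry, zetaTry, etaTry, thetaTry, alphaTry, epsilonTry, betaTry, gammaTry, CG30031, CG30025, deltaTry, CG13202 and iotaTry. gammaTry, deltaTry, CG30025 and CG30031 are known as near-identical copies, and CG30025 is named by no probe here. Each listed gene is known as a protease of the trypsin type, and no more particular substrate is assigned to any of them here.

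All values were taken as log2 ratios of the stage to the pool, with base 2 assumed. On that scale 0 means the average of the pooled stages, and a difference of 1 between stages is 2-fold. A ratio shows the course of 1 gene relative to its own level in the pool, and ratios of different genes do not rank their amounts of RNA. In this whole-tissue RNA, fewer cells that make trypsins and less trypsin RNA in each such cell cannot be told apart. If the 10 pooled stages were mixed in equal parts, no ratio could exceed 10, or 3.32 on the log2 scale. On array a of 18 h BPF, betaTry (3.81), thetaTry (3.41) and 1 epsilonTry probe (3.67) lay above that limit. That array gave the highest of the 3 values of 18 h BPF for all 9 trypsin probes measured on all 3 arrays. Single arrays held 7006 to 13966 values, fewer on a arrays (mean 8948.6) than on b (11998.5) or c arrays (12486.2). lambdaTry had no value on any a array, kappaTry, zetaTry and etaTry each lacked 3 values on a arrays, and betaTry lacked 1 value.

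The trypsin genes were high in the feeding larva, fell steeply around puparium formation, and stayed low. All 9 genes with own probes differed between stages in the moderated F test of limma over the 11 stages, where 57.1% of 7257 probes did. Their adjusted p ran from 1.47e-14 for alphaTry to 0.00152 for lambdaTry. At 18 h BPF every trypsin value lay in the top of its array: the median trypsin probe stood at percentile 99.4 of all ratios on the array, and the lowest at 97.74. The median percentile was 97.8 at 4 h BPF, 3.2 at 0 h and 0.4 at 2 h APF. From then on it did not exceed 0.6, the value at 12 h APF.

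**Figure D1:**
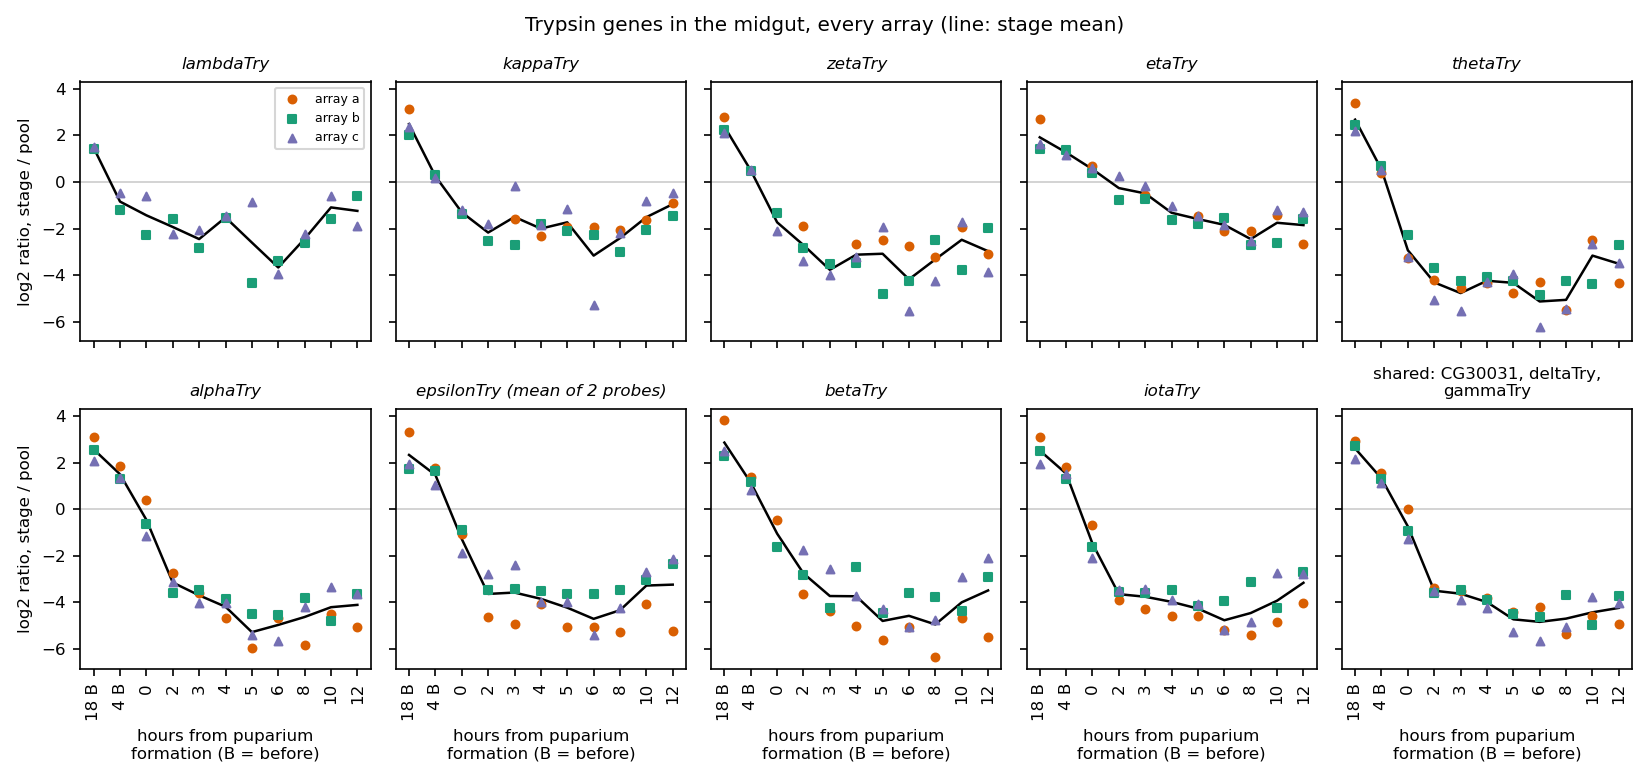
Log2 ratio of the stage to the pooled reference (vertical axis) against the 11 stages (horizontal axis, equally spaced, B for hours before puparium formation) for each trypsin gene and the shared probe. Points are single arrays (a, b, c) and the line joins stage means. Every course begins above 1 at 18 h BPF and lies below 0 from 3 h APF on, and etaTry descends more gradually than the others.

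The first stage compared was 4 h BPF. thetaTry stood at 0.39, 0.69 and 0.53 on the arrays of 4 h BPF, against 3.41, 2.44 and 2.18 on those of 18 h BPF. kappaTry stood at 0.32 and 0.19 at 4 h BPF, where it has 2 values, against 3.12, 2.00 and 2.35 at 18 h BPF. In both genes all arrays of 4 h BPF lay below all arrays of 18 h BPF. thetaTry fell by 2.14 ± 0.50 (SE; 4.41-fold; limma, adjusted p = 0.0067), and kappaTry fell by 2.24 ± 0.67 (4.71-fold; adjusted p = 0.0445). These 2 of 9 genes passed the test, against 2.81% of all 12180 probes tested in that direction. Without array a of 18 h BPF neither did: thetaTry differed by -1.78 (adjusted p = 0.0561) and kappaTry by -1.92 (adjusted p = 0.149). Quantile normalization between arrays also left neither call, with -1.12 for thetaTry and -1.21 for kappaTry.

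The remaining 7 genes had negative differences at 4 h BPF that did not pass. lambdaTry, measured on b and c arrays only, was at -1.19 and -0.48 at 4 h BPF, against 1.43 and 1.51 at 18 h BPF, a difference of -2.31 ± 0.76 (limma, adjusted p = 0.0895). zetaTry differed by -1.88, betaTry by -1.73 and alphaTry by -1.07. The differences of iotaTry (-0.98), epsilonTry (-0.86, mean of its 2 probes) and etaTry (-0.65) were smaller. In 8 of the 9 genes every array of 4 h BPF lay below every array of 18 h BPF, and the exception was epsilonTry. The share of all probes whose arrays were apart in this way was not computed, for this or any other comparison. With 2 or 3 arrays per stage such separation describes the values and is not evidence of a change. The shared probe read 1.57, 1.28 and 1.13 at 4 h BPF, against 2.94, 2.73 and 2.16 at 18 h BPF. Its difference of -1.29 ± 0.39 passed narrowly (adjusted p = 0.0477) but lost its call in 21 of the 33 fits that left out 1 array, array a of 18 h BPF among them (-1.12, adjusted p = 0.167). Under quantile normalization the shared probe differed by -0.48 (adjusted p = 0.755).

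By puparium formation all 9 genes had fallen below 18 h BPF, against 7.34% of 10204 probes that were lower. No arrays of the stages overlapped, again without a share over all probes. thetaTry had the largest difference. Its arrays read -3.28, -2.26 and -3.24 at 0 h, against 3.41, 2.44 and 2.18 at 18 h BPF, a difference of -5.61 ± 0.50 or 48.7-fold (limma, adjusted p = 2.20e-09). zetaTry, with 2 values at 0 h (-1.34 and -2.11), fell by 4.11 ± 0.74. iotaTry fell by 4.00 ± 0.50. The differences of betaTry (-3.92 ± 0.84) and kappaTry (-3.79 ± 0.67) also passed, and those of all 3 were between 13.86-fold and 15.95-fold.

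The smaller falls by 0 h were those of epsilonTry, alphaTry, lambdaTry and etaTry. The epsilonTry probes differed by -3.75 ± 0.76 and -3.48 ± 0.64, and both passed. alphaTry read 0.41, -0.63 and -1.16 at 0 h, against 3.11, 2.54 and 2.07 at 18 h BPF, and fell by 3.04 ± 0.48 (8.20-fold; limma, adjusted p = 2.39e-05). lambdaTry fell by 2.90 ± 0.76 (7.45-fold; adjusted p = 0.0107). etaTry read 0.68, 0.37 and 0.60 at 0 h, against 2.69, 1.42 and 1.65 at 18 h BPF, so that its arrays of 0 h still lay above the pool. Its fall by 1.37 ± 0.36 (2.59-fold; adjusted p = 0.00705) lost its call without array a of 18 h BPF (-0.99, adjusted p = 0.0759) and under quantile normalization (-0.67, adjusted p = 0.201). For the other 8 genes no fit that left out 1 array and still tested the gene lost the call at 0 h. For lambdaTry, with 2 values at each of these stages, such fits could not change the difference. For betaTry, zetaTry and kappaTry neither of the 2 values at 0 h could be left out.

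**Figure D2:**
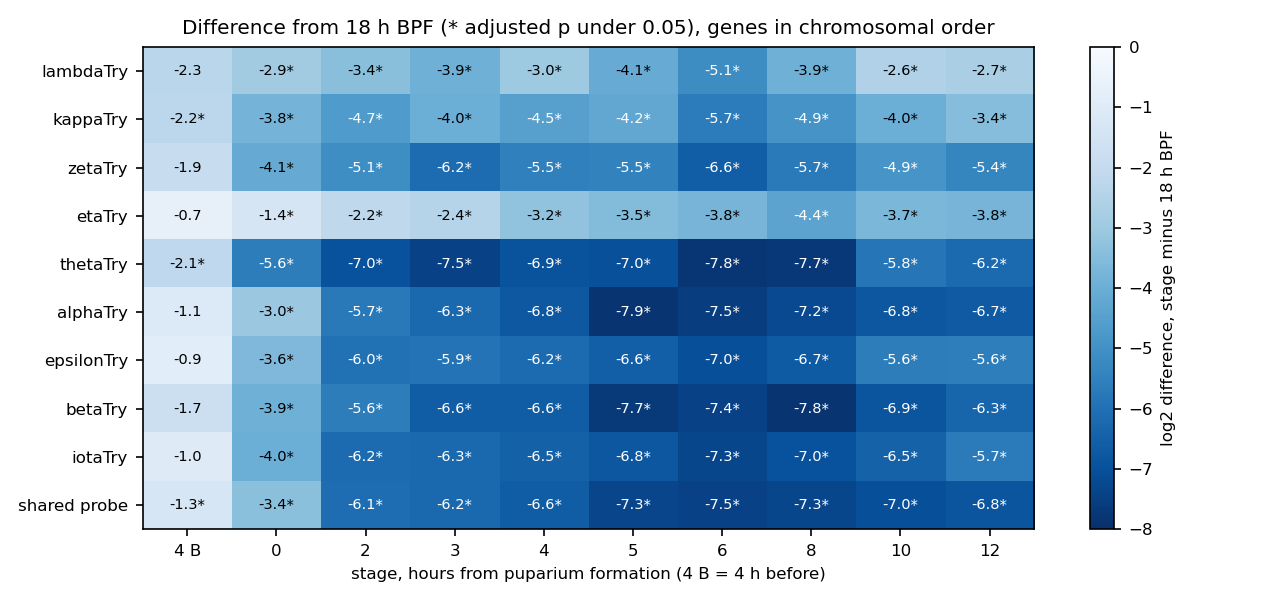
Difference in log2 ratio from 18 h BPF (colour and printed value) of each trypsin gene and the shared probe (rows, in chromosomal order, the shared probe last) at the 10 later stages (columns). A star marks an adjusted p under 0.05 (limma), for epsilonTry in both probes. At 4 h BPF kappaTry, thetaTry and the shared probe carry a star, and from 0 h on every row does.

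The step in which each gene fell was read from neighbouring stages. Between 4 h BPF and 0 h, 4 of 9 genes passed the test, against 1.49% of 10171 probes: thetaTry (-3.46 ± 0.50), iotaTry (-3.01 ± 0.50), epsilonTry (-2.81 and -2.70 in its 2 probes) and alphaTry (-1.96 ± 0.48). Here all arrays of 0 h lay below those of 4 h BPF in 8 of 9 genes, with lambdaTry the exception, again without a share over all probes. thetaTry and iotaTry kept this call in all 33 fits that left out 1 array. alphaTry lost it in 3 of them, without array a of 4 h BPF (-1.78, adjusted p = 0.0866), b of 0 h (-1.87, 0.0621) or c of 0 h (-1.61, 0.103). epsilonTry lost it in 5 fits, in these 3 and also without array b of 4 h BPF or a of 0 h, since 1 of its probes did not pass. Robust moderation likewise ended its call (adjusted p = 0.0786 for that probe).

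Between 0 h and 2 h APF, 2 of 9 genes passed, against 2.65% of 9695 probes. alphaTry read -2.72, -3.62 and -3.11 at 2 h APF, against 0.41, -0.63 and -1.16 at 0 h, and fell by 2.69 ± 0.48 (6.44-fold; limma, adjusted p = 5.28e-04). iotaTry read -3.92, -3.54 and -3.49 at 2 h APF, against -0.68, -1.64 and -2.11 at 0 h, and fell by 2.17 ± 0.50 (adjusted p = 0.00675). The arrays of these stages were apart in both genes, again without a share over all probes. iotaTry lost the call without array a of 0 h. The shared probe read -3.37, -3.62 and -3.51 at 2 h APF, against 0.02, -0.95 and -1.29 at 0 h, a difference of -2.76 ± 0.39. epsilonTry passed in 1 of its 2 probes (-2.92, adjusted p = 0.0157, and -1.79, adjusted p = 0.098) and is not counted. thetaTry differed by -1.39 ± 0.50 in this step (adjusted p = 0.0996).

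After 2 h APF no single step carried a called fall. The steps to 3, 4, 5 and 6 h APF had 0 of 9 trypsin genes lower by limma, and 0% of all probes were lower in any of these 4 steps. At an unadjusted p under 0.05, 0 genes were lower in the step to 3 h APF, and 1 gene in each of the steps to 4, 5 and 6 h APF: etaTry, alphaTry and kappaTry. Of all probes, 162 of 11210, 175 of 11443, 182 of 11670 and 509 of 8922 were lower at that level in these 4 steps. Over the whole interval between 0 h and 6 h APF, 9 of 9 genes were lower at 6 h APF, against 11.4% of 8038 probes. Arrays did not overlap, again without a share over all probes. alphaTry read -4.69, -4.56 and -5.68 at 6 h APF, against 0.41, -0.63 and -1.16 at 0 h, and fell by 4.51 ± 0.48 (22.84-fold; limma, adjusted p = 2.49e-08). This was the largest of the 9 differences. The others ranged to -1.86 ± 0.67 in kappaTry (adjusted p = 0.0426). Without array c of 6 h APF, kappaTry (-0.80) and zetaTry (-1.78) did not pass. Under quantile normalization 5 of the 9 passed. Without the filter on missing values kappaTry (adjusted p = 0.0639) and lambdaTry (0.0568) did not pass, and with robust moderation they did not either (0.0749 and 0.0947).

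The order of the genes thus changed with the interval, but both intervals use the arrays of 0 h. A low value at 0 h enlarges the first fall and shrinks the second. thetaTry had the largest difference by 0 h and 1 of the smaller ones afterwards (-2.20 ± 0.50 between 0 h and 6 h APF), whereas alphaTry differed by -3.04 first and by -4.51 afterwards. Expressed as a share of the difference in stage means between 18 h BPF and 6 h APF, thetaTry had completed 71.8% by 0 h, kappaTry 67.1% and zetaTry 62.6%. lambdaTry stood at 56.4%, iotaTry at 54.8%, betaTry at 52.6% and epsilonTry at 51.3%. alphaTry had completed 40.2% and etaTry 36.5%. By 2 h APF these shares were 57.8% in etaTry, 66.1% in lambdaTry and between 75.5% (betaTry) and 89.6% (thetaTry) in the other 7. The order depends on single arrays: without array c of 6 h APF the share by 0 h was 82.6% in kappaTry and 77.3% in thetaTry. With only b and c arrays it was 64.4% in thetaTry, 60.4% in iotaTry and 58.3% in kappaTry. The shares describe stage means, and their differences between genes were not tested.

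**Figure D3:**
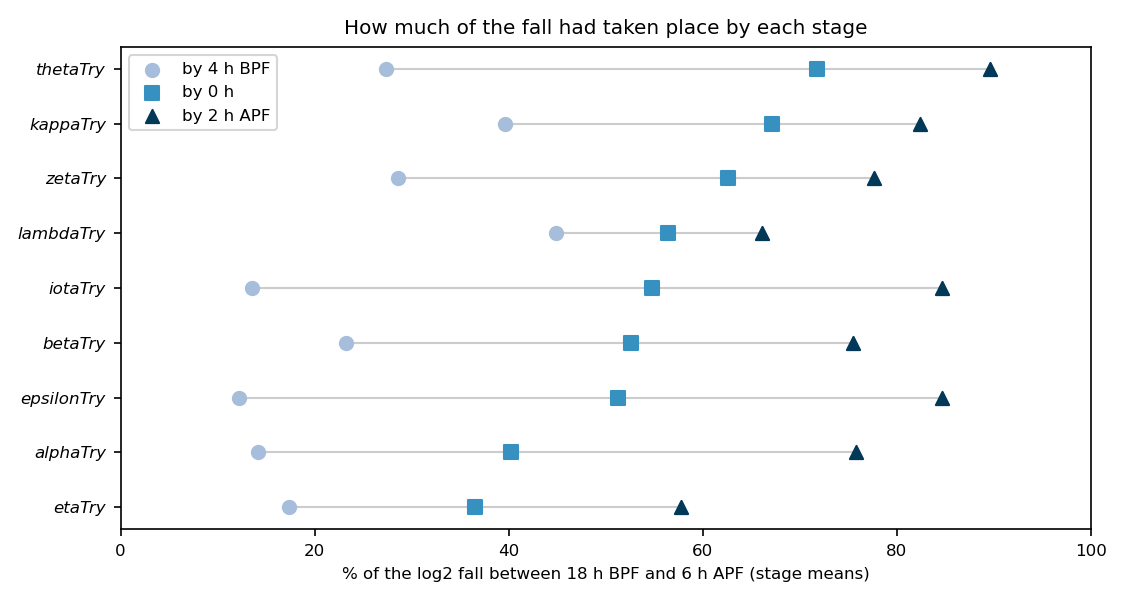
Share (%) of the log2 fall between 18 h BPF and 6 h APF that stage means had reached by 4 h BPF (circles), 0 h (squares) and 2 h APF (triangles), 1 row per gene, sorted by the share at 0 h. thetaTry is at the top with 71.8% by 0 h, and etaTry at the bottom with 36.5%. Without array c of 6 h APF kappaTry (82.6%) would stand above thetaTry (77.3%).

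etaTry had the most gradual course. Its stage means were 1.92, 1.27, 0.55, -0.26, -0.49, -1.32, -1.59, -1.84 and -2.45 at 18 h BPF, 4 h BPF, 0 h and 2, 3, 4, 5, 6 and 8 h APF. Every one was below the one before. On every array of 0 h, 2 h and 3 h APF that measured it, its ratio was the highest among the trypsin genes. At 0 h the median of the others was -0.68, -1.52 and -1.88 on arrays a, b and c, where etaTry read 0.68, 0.37 and 0.60. No single step of etaTry passed the test, while its difference between 6 h APF and 0 h did (-2.39 ± 0.36; limma, adjusted p = 1.15e-05).

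Against 18 h BPF all 9 genes were lower at each stage from 2 h APF to 12 h APF. Arrays overlapped at none of them, again without a share of all probes that were apart in this way. These comparisons share the arrays of 18 h BPF. The share of all probes that were lower was 7.80% at 2 h, 7.28% at 3 h, 7.21% at 4 h, 7.56% at 5 h, 9.97% at 6 h, 8.46% at 8 h, 7.58% at 10 h and 8.18% at 12 h APF. The median difference of the 9 genes was -5.62 at 2 h APF and -7.04 at 6 h APF, beside medians of 0.07 and 0.10 over all probes. The stage with the lowest mean was 6 h APF for lambdaTry, kappaTry, zetaTry, thetaTry, epsilonTry, iotaTry and the shared probe, 8 h APF for etaTry and betaTry, and 5 h APF for alphaTry. Arrays within these late stages spread widely. kappaTry at 6 h APF, for example, read -1.91, -2.29 and -5.28, and lambdaTry at 5 h APF read -4.33 and -0.87.

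Whether the genes returned was asked between 6 h and 12 h APF. 4 of the 9 were higher at 12 h APF, lambdaTry, kappaTry, thetaTry and iotaTry, against 8.72% of 9109 probes, and 0 were lower, against 13.0% of probes. At an unadjusted p under 0.05 the same counts were 4 and 0, where 1298 of the 9109 probes were higher and 1762 lower. kappaTry read -0.92, -1.46 and -0.47 at 12 h APF, against -1.91, -2.29 and -5.28 at 6 h APF, and was higher by 2.22 ± 0.60 (4.64-fold; limma, adjusted p = 0.0084). lambdaTry read -0.58 and -1.89 at 12 h APF, against -3.39 and -3.95 at 6 h APF, and was higher by 2.43 ± 0.76 (5.39-fold; adjusted p = 0.0282). Only in these 2 genes were all arrays of 12 h APF above all arrays of 6 h APF, again without a share over all probes. lambdaTry has no a arrays, however, and on b and c arrays alone every gene but etaTry was apart in this way.

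In the other called genes the arrays overlapped. thetaTry read -4.33, -2.71 and -3.49 at 12 h APF, against -4.28, -4.87 and -6.22 at 6 h APF, a rise by 1.62 ± 0.50 (3.06-fold; limma, adjusted p = 0.0193). iotaTry read -4.02, -2.69 and -2.78 at 12 h APF, against -5.18, -3.96 and -5.17 at 6 h APF, a rise by 1.61 ± 0.50 (3.05-fold; adjusted p = 0.0211). In both, array a was the lowest of 12 h APF and lay within the range of 6 h APF.

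The remaining genes did not pass. epsilonTry differed by 1.47 (mean of 2 probes; adjusted p = 0.112 and 0.175), zetaTry by 1.21, betaTry by 1.09 and alphaTry by 0.86. etaTry differed by -0.01 ± 0.36 (95% confidence interval -0.74 to 0.73), with -2.68, -1.58 and -1.29 at 12 h APF, against -2.11, -1.56 and -1.86 at 6 h APF. The shared probe differed by 0.60 ± 0.39. The called rises were not compared with the uncalled ones by a test, so the genes are not shown to differ in their return.

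**Figure D4:**
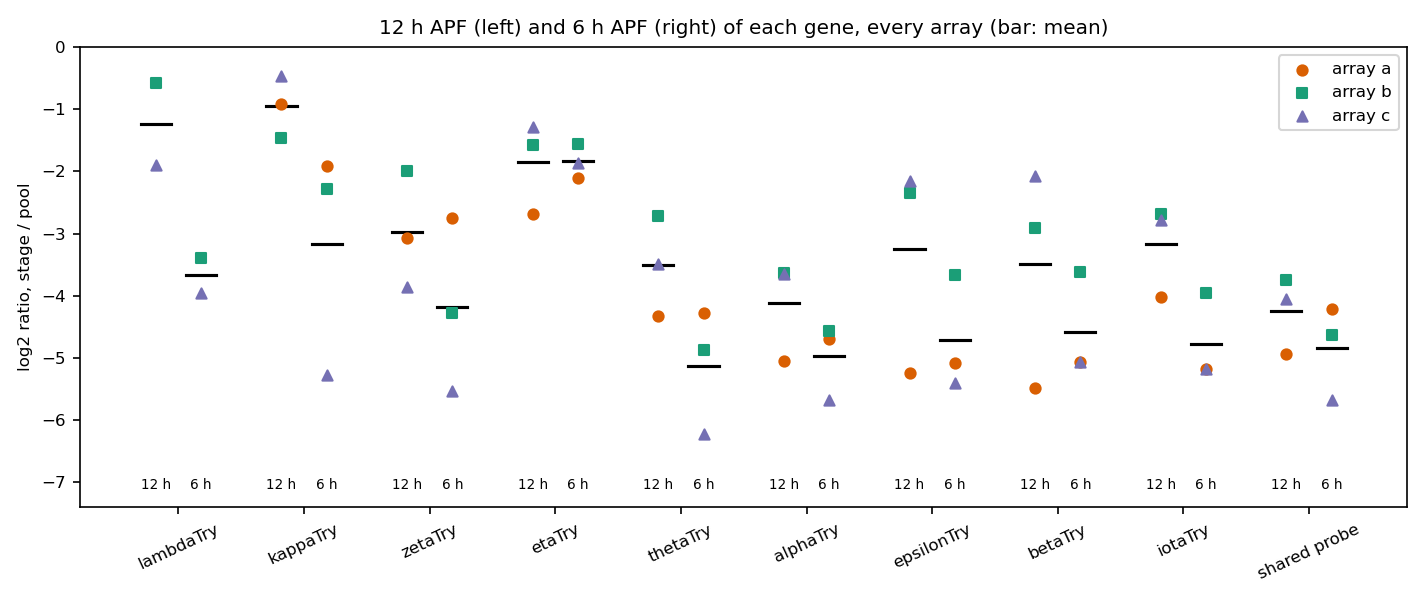
Log2 ratio of the stage to the pooled reference (vertical axis) on every array of 12 h APF (left of each pair) and 6 h APF (right) for the trypsin genes and the shared probe. Points are arrays a, b and c, and bars are means. kappaTry and lambdaTry, the latter without a arrays, have no overlap between the stages, and etaTry has equal means within 0.01.

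The count of 4 rested on single arrays. Array c of 6 h APF was the lowest of its stage for 6 of 9 trypsin probes with 3 values, and array a of 12 h APF for 7 of 9. Without array c of 6 h APF 0 of 8 genes tested were higher, with kappaTry at 1.16 (adjusted p = 0.098), thetaTry at 1.07 (0.152) and iotaTry at 1.41 (0.0785), and lambdaTry not tested. Without array b of 12 h APF only kappaTry passed, and without array c of 12 h APF kappaTry and thetaTry did. With all a arrays left out 7 of 9 genes passed, and under quantile normalization 0 did (kappaTry 1.29, lambdaTry 1.40, thetaTry 0.75, iotaTry 0.48). The part of these arrays in the result beyond these values was not tested.

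By steps, thetaTry was the only gene called higher, between 8 h and 10 h APF (1 of 9 genes, against 0.767% of 11866 probes). It read -2.48, -4.36 and -2.65 at 10 h APF, against -5.49, -4.23 and -5.47 at 8 h APF, so that array b of 10 h APF lay within the range of 8 h APF. The difference of 1.90 ± 0.50 passed narrowly (limma, adjusted p = 0.0479) and did not in 21 of the 33 fits that left out 1 array. The step to 8 h APF and the step to 12 h APF had 0 genes called higher, where 199 of 8942 and 132 of 13295 probes were. At an unadjusted p under 0.05 there were also 0 genes higher, where 731 and 753 of these probes were. Lower genes numbered 0 in the steps to 8, 10 and 12 h APF by limma, where 1.13%, 0.691% and 1.35% of probes were lower. At an unadjusted p under 0.05 they also numbered 0, where 741 of 8942, 720 of 11866 and 897 of 13295 probes were lower.

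No gene regained its larval ratio by 12 h APF. Compared with 18 h BPF, alphaTry was lower by the largest amount, reading -5.05, -3.63 and -3.65 at 12 h APF, against 3.11, 2.54 and 2.07 at 18 h BPF. The difference was -6.69 ± 0.48, or 103.11-fold (limma, adjusted p = 1.71e-11). lambdaTry differed least, by -2.71 ± 0.76, or 6.54-fold (adjusted p = 0.0173), and kappaTry by -3.44 ± 0.60, or 10.83-fold. In stage means, lambdaTry had regained 47.3% of its log2 fall by 12 h APF and kappaTry 39.2%. iotaTry (22.1%), epsilonTry (20.9%), thetaTry (20.7%), zetaTry (18.5%), betaTry (14.6%) and alphaTry (11.4%) had regained less, the shared probe 8.0%, and etaTry -0.1%. All these shares were measured from 6 h APF, which was not the lowest stage of every gene. The lowest means were -2.45 in etaTry and -4.95 in betaTry at 8 h APF, and -5.28 in alphaTry at 5 h APF. At 12 h APF these 3 genes stood at -1.85, -3.49 and -4.11. lambdaTry has no a arrays, and with only b and c arrays kappaTry had regained 47.4%, close to the 47.3% of lambdaTry, and etaTry 8.5%. Without array a of 12 h APF alone, betaTry had regained 28.0%, epsilonTry 35.0%, alphaTry 17.6% and etaTry 10.9%, and without array c of 6 h APF kappaTry had regained 25.2%, zetaTry 9.1% and alphaTry 7.1%. The order of the genes in these shares is therefore not settled.

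The courses of the genes resembled each other. Over the arrays that measured both, the 36 pairs of genes correlated between 0.60 and 0.98 (median 0.86, Pearson, 21 to 33 arrays), and over the 11 stage means at 0.70 or more (median 0.93). The lowest value on both scales was that of lambdaTry with etaTry. The shared probe correlated with alphaTry at 0.99 over 33 arrays. All of these values share the reference pool and the arrays. Close copies may also bind the same probe, and how much of a probe's signal comes from a neighbouring copy was not tested. The stage means of the 2 epsilonTry probes lay farthest apart at 6 h APF, with -5.26 and -4.17.

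Of 5442 other named genes with values at all stages, those whose 11 stage means followed the average trypsin course most closely were CG11911 (Pearson r = 0.995), CG7252 (0.994), Muc55B (0.992), l(2)efl (0.991) and CG33307 (0.990). By Spearman correlation CG11911 ranked 2 (0.982), CG33307 13 (0.964), CG7252 43 (0.936), Muc55B 60 (0.927) and l(2)efl 181 (0.845). The other 4 of the 5 genes highest by Spearman were CG4653, CG14989, CG15422 and CG3277. Muc55B encodes a mucin and l(2)efl a small heat shock protein. CG11911 read 2.70, -1.48, -4.41 and -3.38 at 18 h BPF, 0 h, 6 h APF and 12 h APF in stage means. Taken singly, alphaTry and betaTry were both closest to Jon99Cii (0.995 and 0.990), a Jonah serine protease, and etaTry to Peritrophin-15a (0.992), a peritrophic matrix protein. kappaTry was closest to LManVI (0.974), a lysosomal alpha-mannosidase, and zetaTry to CG7025 (0.991), a carboxypeptidase. thetaTry was closest to CG17145 (0.997), epsilonTry to CG33307 (0.996), iotaTry to CG11911 (0.993) and lambdaTry to the muscle LIM protein gene Mlp84B (0.948). These are the highest of 5442 values in each case and describe likeness only.

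Other digestive proteases were set beside the trypsins. Of 16 Jonah genes, chymotrypsin-like proteases of the larval gut, 0 were lower at 4 h BPF than at 18 h BPF by limma. At an unadjusted p under 0.05, 4 were lower, where 947 of all 12180 probes were. The Jonah median was -0.94, where the trypsin median was -1.73. By 0 h, 12 of 16 were lower (median -3.17), among them Jon66Cii by -4.71 and Jon25Biii by -4.61, where 9 of 9 trypsins were (median -3.79). Between 0 h and 6 h APF 15 of 16 Jonah genes fell further (median -3.49), where the trypsin median was -2.46. Between 6 h and 12 h APF 1 of 16 rose, Jon99Ci by 2.18, against 8.72% of 9109 probes. The Jonah median was 0.31, where the trypsin median was 1.47. At 12 h APF 15 of 16 were still below 18 h BPF (median -6.11), where the trypsin median was -5.57. Differences between the lists were not tested.

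The 12 carboxypeptidases, which trim amino acids off the peptides that trypsins release, followed less uniform courses. 8 of 12 were lower at 0 h than at 18 h BPF (median -1.60), where 749 of 10204 probes were. The differences were -5.88 in CG17633 and -3.88 in CG7025. Of 10 tested between 0 h and 6 h APF, 2 fell and 3 rose, where 915 and 1068 of 8038 probes did. Between 6 h and 12 h APF 2 fell and 1 rose, where 1187 and 794 of 9109 probes did. Of other trypsin-type genes outside the block, 3 were measured. Try29F was lower at 0 h than at 18 h BPF by -1.75 ± 0.34 and higher at 12 h APF than at 6 h APF by 2.06 ± 0.34 (limma, adjusted p = 4.81e-05). Its stage means were 1.19 at 12 h APF, against 0.14 at 18 h BPF, and this difference of 1.05 passed the test as a rise (adjusted p = 0.0287). Ser6 was lower at 0 h than at 18 h BPF, with a difference of -1.73 ± 0.29, and Ser12 differed by -0.43 (adjusted p = 0.476). At 12 h APF both were lower than at 18 h BPF, Ser6 with -2.61 (adjusted p = 9.46e-08) and Ser12 with -1.51 (adjusted p = 0.00239).

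**Figure D5:**
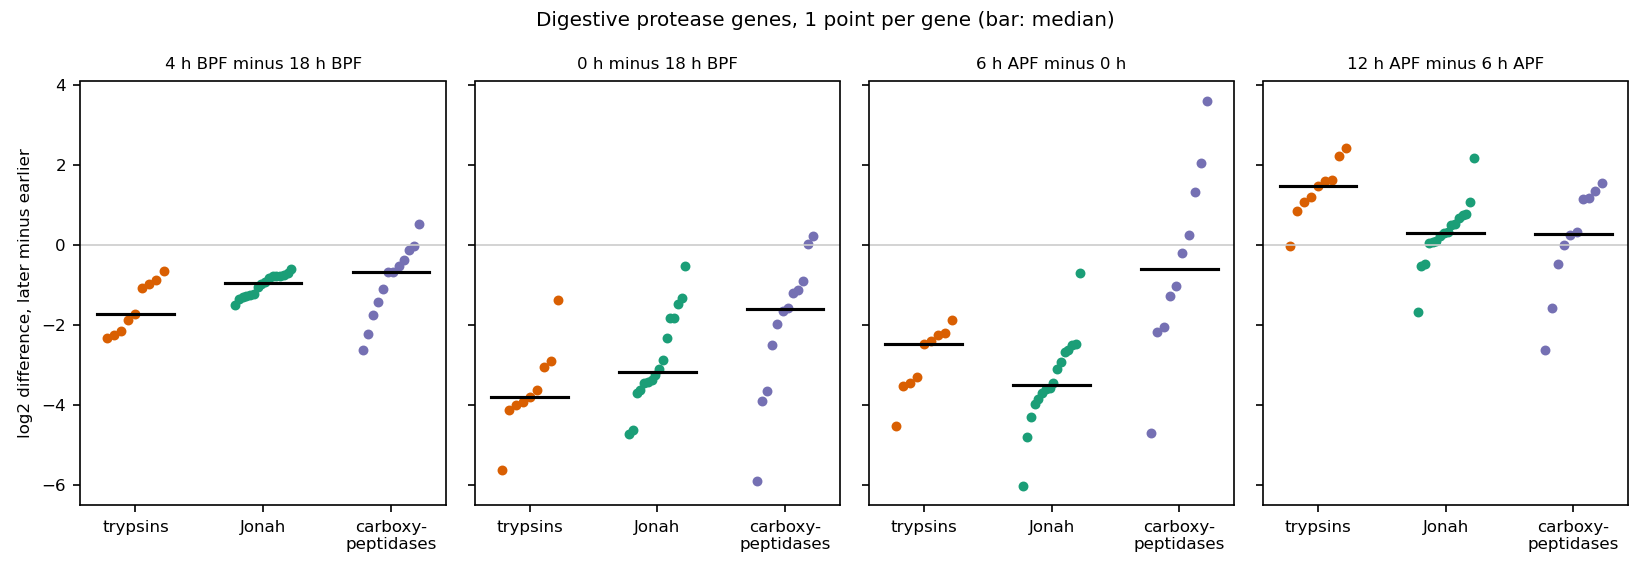
Log2 difference between stages (vertical axis, later minus earlier) of the 9 trypsin genes, the Jonah serine proteases and the digestive carboxypeptidases in 4 intervals (panels). Points are genes sorted by value and bars are medians. Between 6 h and 12 h APF the medians are 1.47, 0.31 and 0.29.

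Some marker genes of other cell types that a dissected midgut can hold also passed the test in these intervals, and others did not. All ratios are to a midgut pool, so they show a marker's course and not its presence, and summed levels are not defined for them. Of 7 midgut epithelium markers 4 were on the array. At 0 h against 18 h BPF 0 of 4 passed, and 1 at an unadjusted p under 0.05 (median -0.93, from -3.02 in Amy-d to -0.17 in GATAe). At that unadjusted level 1131 of all 10204 probes were lower and 1634 higher, and at an adjusted p under 0.05 749 were lower and 1028 higher. All 4 visceral muscle markers measured were lower at 0 h (median -1.08), with -2.47 in Mlc2 and -1.10 in Tm2. The progenitor marker esg, the only one of its list measured, was higher by 0.95. Of 2 fat body markers 1 was higher, Fbp1 by 2.12, and of 7 ecdysone response genes 2 were, Eip93F by 2.24 and Hr39 by 0.97. Of 2 Malpighian tubule markers 1 was lower, Fst, with a difference of -1.33. Of the markers of enteroendocrine cells (3), salivary gland (2) and haemocytes (2), 0 passed by limma in that interval, and 0 at an unadjusted p under 0.05.

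Between 6 h and 12 h APF, 1 of 4 epithelial markers rose, nub by 0.75, and 1 fell, GATAe, with a difference of -0.76. Of all 9109 probes 794 were called higher and 1187 lower. Of 4 haemocyte markers 2 were lower at 12 h APF (median -0.82), of 3 visceral muscle markers 1 was higher, of 2 Malpighian tubule markers 1 was higher and 1 lower, and of 7 ecdysone response genes 1 was lower. Of the markers of progenitors (1), enteroendocrine cells (3) and fat body (3), 0 passed by limma, and 0 at an unadjusted p under 0.05. The part of these cell types in the trypsin changes was not tested.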

How the data were processed

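The deposited values are log ratios, 1 per probe and array, made by the authors, and were taken as log2. The labels' protocols name amplification by in vitro transcription, Cy5 for the stage and Cy3 for the reference. For background correction, normalization, log base and direction the sources used here give nothing. Stage over reference was inferred: averaged over the pooled stages, the ratios then came closer to 1 constant (in base 2, SD 0.117 over 7257 probes, against 0.509 reversed). Base 2 was assumed. Its SD was below that of base e (0.204), but base 2 was the smallest base tried and this SD tends to shrink with the base. The SD therefore cannot settle the base, and all fold changes rest on base 2. Array medians ran from -0.029 to 0.118, and values were used as deposited.

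Probes were named from the platform annotation and a RefSeq table (Release 6 plus ISO1 MT, names and order only). Of the probes, 10828 named 1 gene, 227 several, and 3009 were not in the table. epsilonTry counts as called where both probes are. limma 3.58.1 in R 4.3.3 fitted all 33 arrays in 1 model of 11 stage means with moderated variances. Probes needed 2 values in each stage compared. Benjamini-Hochberg adjustment ran over all probes tested, and an adjusted p under 0.05 was called. The model was tested on simulated data. Percentiles, shares and correlations used pandas 2.3.3 and NumPy 2.4.6 in Python 3.11.15. P-values set differences between stages against the spread of arrays within stages, estimated for each probe over all 11 stages together and moderated across probes.

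All listed trypsin genes are named, with the 5 other genes most like their mean course, the gene most like each, and up to 2 genes per comparison list with the largest called change from 18 h BPF to 0 h. Values of Jon99Ci, nub, GATAe, Amy-d, CG3108 and CG3097 were added after values were seen. The genes and lists were chosen with earlier results of these data known. Alternatives were centring, quantile normalization, dropping the filter on missing values, only complete probes, the replicate letter as a block, only b and c arrays, robust moderation, array weights, and leaving out each array.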

Additional observations from a re-analysis of the deposited data

How the results depend on the processing

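No called difference of a trypsin probe changed sign under an alternative. Uncalled ones did in 115 instances, such as etaTry at 12 h APF against 6 h APF, which was 0.28 with only b and c arrays, and betaTry at 8 h APF against 6 h APF (0.08). Counts of trypsin genes that moved by over 1.5 times are given here. For 4 h BPF against 18 h BPF the 2 genes lower became 0 under quantile normalization and with only b and c arrays, and 1 without the filter on missing values, with only complete probes or with robust moderation. With the replicate block it was also 1 (kappaTry at -2.14, adjusted p = 0.0547). The block also called the second epsilonTry probe between 0 h and 2 h APF (-1.79, adjusted p = 0.0426) and changed no other call of a trypsin gene. The letters were not treated as pairing the arrays: deviations of same-letter arrays from their stage means correlated between -0.4 and 0.7 for a, -0.14 and 0.56 for b, and -0.26 and 0.48 for c, over 55 pairs each. Between 0 h and 2 h APF the 2 genes became 4 under quantile normalization and 1 with only b and c arrays. Between 0 h and 6 h APF the 9 became 5 under quantile normalization. Array weights gave 1 gene lower in the step to 6 h APF and 1 higher in the step to 8 h APF, kappaTry in both, where there had been 0. The 1 gene higher at 10 h than at 8 h APF became 0 under quantile normalization, without the filter, with only b and c arrays and with robust moderation. The 4 genes higher at 12 h than at 6 h APF became 0 under quantile normalization and 7 with only b and c arrays. Only probes with a value on all arrays left 4 trypsin genes to test. All 4 passed over the time course, at every stage from 0 h to 12 h APF against 18 h BPF, and between 0 h and 6 h APF, and 2 of them rose between 6 h and 12 h APF. Robust moderation ended the call of lambdaTry at 10 h APF and at 12 h APF against 18 h BPF (adjusted p = 0.0577 at 12 h), at 12 h APF against 6 h APF (0.0749) and at 6 h APF against 0 h (0.0947), of kappaTry at 6 h APF against 0 h (0.0749), and of 1 epsilonTry probe at 0 h against 4 h BPF (0.0786). The shares of the fall without single arrays and with only b and c arrays were computed after seeing the data. By 0 h, leaving out 1 array gave, where the gene was still tested, 68.1% to 77.3% for thetaTry, 60.4% to 82.6% for kappaTry and 29.2% to 40.4% for etaTry.

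Over the 33 fits that left out 1 array, the counts ran from 5 to 9 for the time course, 0 to 3 for 4 h BPF against 18 h BPF, 5 to 9 for 0 h against 18 h BPF, 2 to 4 for 0 h against 4 h BPF, 1 to 2 for 2 h APF against 0 h, 5 to 9 for 6 h APF against 0 h, 0 to 1 for 10 h against 8 h APF, and 0 to 6 for 12 h against 6 h APF. The counts of 5 came from fits that tested only 5 genes, since array b of 0 h, or b or c of 4 h BPF, had held 1 of the only 2 values of the others. A stage with 2 values shares its estimate of spread with the other stages. Signal over background was not analysed here, so the precision of the low ratios after 2 h APF rests on the spread of arrays alone.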

Other observations

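Along the chromosome, the genes with the larger differences at 4 h BPF against 18 h BPF stood at one end of the block: lambdaTry (-2.31), kappaTry (-2.24), zetaTry (-1.88) and thetaTry (-2.14) come before alphaTry (-1.07), epsilonTry (-0.86), betaTry (-1.73) and iotaTry (-0.98). etaTry (-0.65), which lies between zetaTry and thetaTry, did not follow this order. lambdaTry and kappaTry, the first genes of the block, also had the largest differences at 12 h APF against 6 h APF, 2.43 and 2.22. These rankings mix sets of arrays. lambdaTry has no a arrays, and kappaTry, zetaTry and etaTry have array a at 18 h BPF but not at 4 h BPF. With only b and c arrays, 1 epsilonTry probe differed by 2.61 between 6 h and 12 h APF, above lambdaTry, and the other by 1.97. The order along the chromosome was noticed after the values were seen and was not tested.

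Between 6 h and 12 h APF the carboxypeptidase genes CG3108 and CG3097 changed by -2.63 and -1.58, with stage means of -1.15 and -0.77 at 12 h APF, against 1.47 and 0.81 at 6 h APF. Both genes stood above the pool at 6 h APF, the stage at which 6 of the 9 trypsin genes had their lowest mean.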
